A study of Mus musculus with 25 samples.

Results

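Hepatocytes clear drugs, hormones and bile constituents from blood by means of membrane transporters, and 9 of their genes were followed here in 25 mouse liver and tumor libraries. They were 5 uptake carriers (Slco1a1, Slco1a4, Slco2b1, Slc22a7 and Slc22a30) and 4 efflux pumps (Abcc2, Abcc3, Abcc4 and Abcb1a), chosen by symbol and matched to the gene identifiers of the files, 9 of 48795 genes in all. The samples came from male C57BL/6J mice, an inbred strain, that were either left untreated (nonDEN) or injected once with diethylnitrosamine (DEN), a carcinogen activated in hepatocytes, at 25 mg/kg and 2 weeks of age. From weaning the mice received a control diet (CD) or a western diet (WD), and tissue was taken between 36 and 39 weeks of age. Untreated mice gave control diet liver (nonDEN L-CD, n = 3) and western diet liver (nonDEN L-WD, n = 4). Injected mice gave control diet liver (DEN L-CD, n = 4) and, after the western diet, peritumoral liver (DEN PT-WD, n = 8) and tumors (DEN T-WD, n = 6). The first 3 of these groups, 11 libraries, are called whole liver here, and since some injected mice on the control diet bore tumors too small to be cut out, DEN L-CD liver may hold or adjoin tumor tissue. Every library was made from bulk tissue, so fewer cells of a type and less RNA per cell cannot be told apart. The labels do not say whether a tumor and a peritumoral sample came from the same mouse, and the p-values measure the spread between these samples.

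Uptake carriers of the Slco family (organic anion transporting polypeptides) and the Slc22 family (organic anion and cation transporters) sit mainly on the blood-facing membrane and bring steroid conjugates, bile acids and many drugs into the hepatocyte. Efflux pumps of the ABC family use ATP: Abcc2 and Abcb1a (P-glycoprotein) face the bile canaliculus, whereas Abcc3 and Abcc4 return conjugates to the blood. Several of these genes are controlled by nuclear receptors such as the constitutive androstane receptor (Nr1i3), by the oxidative stress factor NRF2 (Nfe2l2), or by the male pattern of growth hormone secretion, for which Slco1a1 is a well-known target in mouse liver.

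The libraries held between 21530083 and 38074411 expected counts (median 27610432), and all 9 genes passed the filter on low counts (15625 genes in all). Genes of hepatocytes were abundant in every library: the 6 hepatocyte markers summed to between 33655 and 138952 TPM (a length-corrected share of the transcripts). A pair of libraries stood apart. In DEN T-WD replicate 5, Alb (albumin) was at 21879 TPM against a tumor mean of 80146, and 12 of 13 genes known as NRF2 targets were higher than in each of the other 5 tumors. nonDEN L-WD replicate 1 held kidney transcripts, with 6 kidney markers chosen after their values were seen (Kap, Umod, Slc34a1, Slc12a1, Slc22a6 and Aqp2) summing to 1375 TPM against at most 0.16 TPM in any other library. Leaving out that library changed no call of the 9 genes in any comparison that used it, and results that rest on the tumor library are given with and without it.

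Differences between groups are given as log2 fold changes of normalized counts, which are expected counts scaled to library sizes by the TMM method, with the standard error (SE) and a p from the quasi-likelihood test of edgeR, adjusted over 15625 genes. A gene was called where its adjusted p was at most 0.05 and its change at least 2-fold. Over all tested genes the median change was between -0.01 and 0.04 on the log2 scale in every comparison. On the log2 TPM scale that median reached 0.46 (tumors against nonDEN L-CD), so TPM is used for levels and normalized counts for changes.

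Tumors held fewer transcripts of uptake carriers than peritumoral liver, and the efflux pumps were divided. Of the 5 uptake carriers, 4 were called lower in DEN T-WD than in DEN PT-WD and the other one, Slc22a30, passed the adjusted p at a change just under 2-fold, whereas 2 of the 4 efflux pumps, Abcc4 and Abcb1a, were called higher. Thus 6 of the 9 genes were called, against 7.9% of all tested genes (4.81% higher and 3.09% lower). The 9 genes were chosen with earlier results of these data known, so setting them against all genes is no test of the set. The median change of the 9 genes was -0.95 on the log2 scale, against 0.01 for all genes. Abcc2 (0.21; adjusted p = 0.122) and Abcc3 (-0.21; adjusted p = 0.435) did not pass. Without DEN T-WD replicate 5 the count fell to 4, with 0 efflux pumps called and a median of 0.18 over the 4 pumps. Abcb1a then lay just under 2-fold (0.97; adjusted p = 0.000588).

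**Figure D1:**
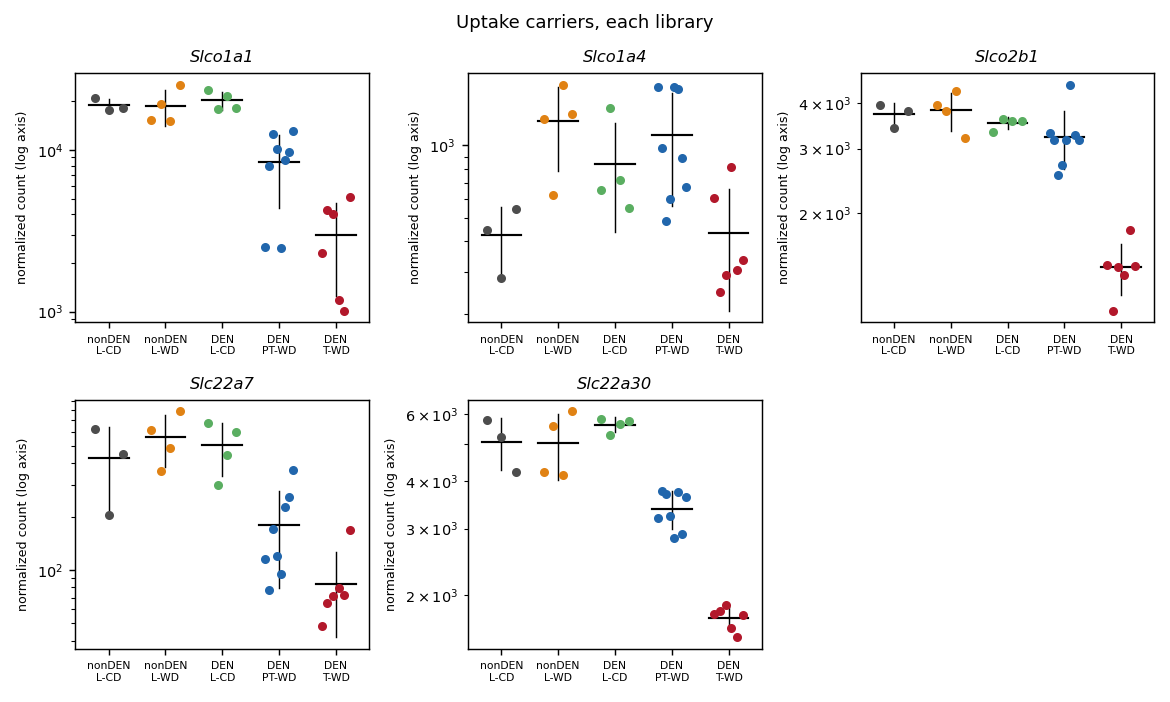
Normalized counts of the 5 uptake carriers on log axes, a point per library in the 5 groups, with the mean as a horizontal line and the SD as a vertical line. All 6 tumors lie below all 8 peritumoral libraries for Slco2b1 and Slc22a30, and the ranges overlap for Slco1a1, Slco1a4 and Slc22a7.

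Slco1a1 was the most abundant uptake carrier of the 5 in untreated liver, at 243 ± 13.7 TPM (SD, n = 3) in nonDEN L-CD. The nonDEN L-CD libraries held 20886, 17703 and 18259 normalized counts, the nonDEN L-WD libraries 15426, 19188, 15230 and 25439, and the DEN L-CD libraries 23436, 17890, 21729 and 18213. Peritumoral libraries ranged from 2485 to 13152 with a median of 9165, and tumors from 1009 to 5151 with a median of 3167. All peritumoral and tumor libraries therefore lay below every other liver, and tumors and peritumoral liver overlapped. Tumors were called lower than peritumoral liver (log2 fold change -1.49 ± 0.38 (SE); adjusted p = 0.00342). Against nonDEN L-WD, tumors were 6.30-fold lower (log2 fold change -2.65 ± 0.43 (SE); adjusted p = 3.1e-05). The 3 whole-liver groups did not differ beyond their spread (adjusted p from 0.91 to 0.993). Peritumoral liver was called lower than DEN L-CD (log2 fold change -1.28 ± 0.40 (SE); adjusted p = 0.0413) and lower than nonDEN L-CD (-1.18 ± 0.43 (SE); adjusted p = 0.0299), but not lower than nonDEN L-WD (-1.17 ± 0.40 (SE); adjusted p = 0.0549). These calls lay close to the threshold. The call against DEN L-CD was lost without any 1 of the 4 DEN L-CD libraries or peritumoral replicates 1, 2, 4 or 5 (adjusted p from 0.0532 to 0.106), the call against nonDEN L-CD without any 1 of its 3 libraries (0.0658 to 0.0773), and the difference from nonDEN L-WD passed without peritumoral replicate 8 (0.0483).

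Slco1a4 carries many of the same substrates and, in mice, is higher in females than in males. It followed another course. Normalized counts of the nonDEN L-CD libraries were 446, 283 and 545, and those of nonDEN L-WD 1291, 621, 1789 and 1354. Those of DEN L-CD were 651, 1427, 717 and 549. In peritumoral liver they ranged from 484 to 1752 (median 933) and tumors from 247 to 818 (median 320). All 4 western diet livers lay above all 3 control diet livers of untreated mice, and tumors overlapped with every other group. The western diet raised it 2.98-fold in untreated liver (log2 fold change 1.57 ± 0.50 (SE); adjusted p = 0.0272), a call lost without nonDEN L-CD replicate 1 or 2 or nonDEN L-WD replicate 3 (adjusted p from 0.0617 to 0.135). Peritumoral liver was called higher than nonDEN L-CD (1.38 ± 0.46 (SE); adjusted p = 0.0191), a call lost without nonDEN L-CD replicate 1 or 2 (0.0551 to 0.107). Tumors were called lower than peritumoral liver (-1.35 ± 0.35 (SE); adjusted p = 0.00431) and lower than nonDEN L-WD (-1.54 ± 0.40 (SE); adjusted p = 0.00289). Tumors and nonDEN L-CD did not differ beyond their spread (adjusted p = 0.964). Tumors were not called against DEN L-CD (-0.95 ± 0.40 (SE); adjusted p = 0.0574), but passed there without DEN L-CD replicate 4 or tumor replicate 1 or 4 (adjusted p from 0.0158 to 0.0456).

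Slco2b1, a carrier of steroid sulfates and statins, was lower in tumors than in any other library. It held between 3216 and 4308 normalized counts in the 11 libraries of the 3 whole-liver groups. Peritumoral libraries ranged from 2537 to 4495 (median 3167) and tumors from 1077 to 1791 (median 1427). No tumor overlapped with any other library. Tumors were 2.27-fold lower than peritumoral liver (log2 fold change -1.18 ± 0.11 (SE); adjusted p = 8.59e-08), and the 4 non-tumor groups did not differ from each other beyond their spread (adjusted p from 0.178 to 0.901).

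Slc22a7, a transporter of organic anions and nucleotides, was a low-level transcript at 9.65 ± 4.45 TPM (SD, n = 3) in nonDEN L-CD. The nonDEN L-CD libraries held 622, 205 and 450 normalized counts and the nonDEN L-WD libraries 614, 360, 486 and 788. The DEN L-CD libraries held 677, 300.0, 447 and 602. The peritumoral range was 76.9 to 367 (median 145) and that of tumors 48.5 to 167 (median 71.8). Tumors lay below every library of the 3 whole-liver groups and overlapped with peritumoral liver. Peritumoral liver was called lower than nonDEN L-WD (log2 fold change -1.64 ± 0.36 (SE); adjusted p = 0.00653), DEN L-CD (-1.49 ± 0.36 (SE); adjusted p = 0.0126) and nonDEN L-CD (-1.24 ± 0.40 (SE); adjusted p = 0.0139). Tumors were lower again than peritumoral liver (-1.09 ± 0.36 (SE); adjusted p = 0.019). That last call was lost without peritumoral replicate 7 or 8 or tumor replicate 1 (log2 fold change from -0.99 to -0.85, adjusted p from 0.037 to 0.0502). The call against DEN L-CD was lost without DEN L-CD replicate 1 (adjusted p = 0.0547), and that against nonDEN L-CD without nonDEN L-CD replicate 1 (log2 fold change -0.90, adjusted p = 0.123).

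Slc22a30, a less studied member of the organic anion branch, held from 4147 to 6128 normalized counts in the 3 whole-liver groups, from 2840 to 3771 (median 3440) in peritumoral liver and from 1553 to 1886 (median 1785) in tumors. The 3 ranges did not overlap. Peritumoral liver lay 1.49-fold below nonDEN L-WD (log2 fold change -0.57 ± 0.10 (SE); adjusted p = 0.00197) and tumors 1.94-fold below peritumoral liver (-0.95 ± 0.10 (SE); adjusted p = 1.89e-07), so neither step reached 2-fold. From nonDEN L-WD to tumor the difference was 2.88-fold (-1.53 ± 0.11 (SE); adjusted p = 1.14e-09). Of its words of 50 bases, 34.2% also occur in transcripts of other genes, mainly Slc22a28, so that reads of the pair may be divided between them. The measured level of Slc22a30 is uncertain to that extent.

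**Figure D2:**
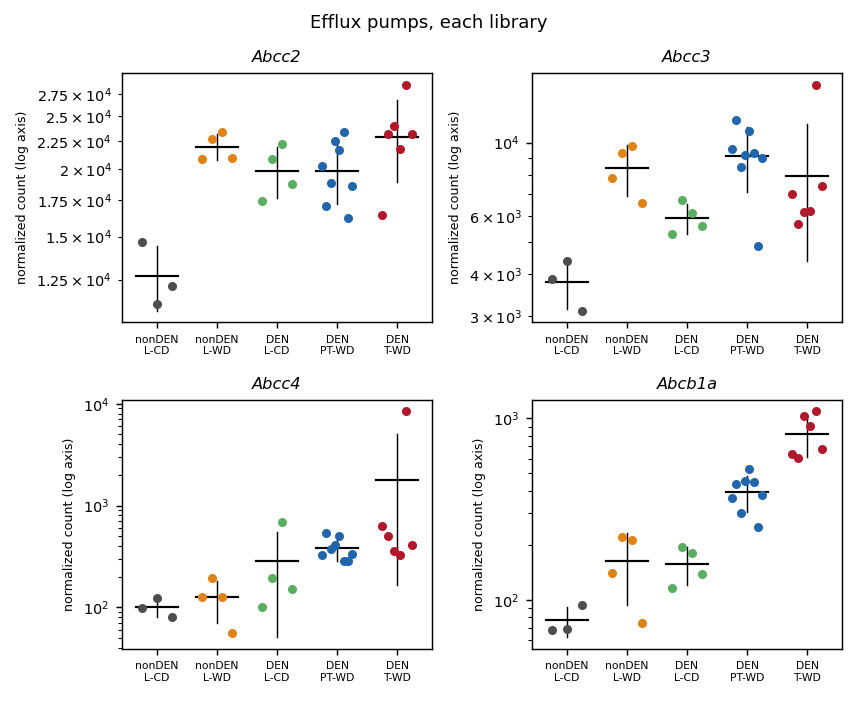
Normalized counts of the 4 efflux pumps on log axes, a point per library in the 5 groups, with the mean as a horizontal line and the SD as a vertical line (for Abcc4 in tumors the lower end is drawn at a positive value, since the SD exceeds the mean). Abcb1a is higher in all 6 tumors than in all other libraries, and Abcc4 reaches 8511 in a single tumor while the other 5 lie between 330.4 and 628.

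Abcc2, the canalicular pump for glutathione and glucuronide conjugates, was the most abundant of the 4 pumps, at 128 ± 13.5 TPM (SD, n = 3) in nonDEN L-CD and 316 ± 75.0 TPM (SD, n = 6) in tumors. Control livers (nonDEN L-CD) held 14634, 11252 and 12180 normalized counts, nonDEN L-WD livers 20838, 22721, 23348 and 20981, and DEN L-CD livers 17446, 20855, 22182 and 18710. Libraries of peritumoral liver ranged from 16200 to 23398 (median 19520) and tumors from 16440 to 28593 (median 23175). Every other library lay above all 3 untreated control diet livers. The increase passed the adjusted p in all 4 groups without reaching 2-fold: 1.73-fold in nonDEN L-WD (log2 fold change 0.79 ± 0.15 (SE); adjusted p = 0.00075), 1.56-fold in DEN L-CD (0.64 ± 0.15 (SE); adjusted p = 0.004), 1.56-fold in peritumoral liver (0.64 ± 0.14 (SE); adjusted p = 0.000602) and 1.80-fold in tumors (0.85 ± 0.14 (SE); adjusted p = 3.16e-05). None of these 4 groups differed from another beyond its spread (adjusted p from 0.122 to 0.999).

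Abcc3, which exports glucuronides to the blood, was higher on the western diet in untreated mice. Normalized counts of Abcc3 were 3886, 4394 and 3103 for nonDEN L-CD, then 7826, 9300, 9795 and 6563 for nonDEN L-WD, and 5290, 6692, 6112 and 5606 for DEN L-CD. Peritumoral liver ranged from 4888 to 11732 (median 9235). Tumors ranged from 5666 to 14977 (median 6599), the highest being replicate 5. The western diet raised Abcc3 2.21-fold in untreated liver without overlap (log2 fold change 1.14 ± 0.28 (SE); adjusted p = 0.0055), and peritumoral liver stood 2.40-fold above nonDEN L-CD (1.26 ± 0.26 (SE); adjusted p = 0.000472). Between tumors and peritumoral liver no difference was detectable beyond the spread (-0.21 ± 0.19 (SE); adjusted p = 0.435), whereas without tumor replicate 5 tumors were lower at less than 2-fold (-0.49 ± 0.15 (SE); adjusted p = 0.0107). Tumors were called higher than nonDEN L-CD (1.06 ± 0.26 (SE); adjusted p = 0.00179), a call lost without tumor replicate 5 or nonDEN L-CD replicate 3 (log2 fold change from 0.77 to 0.93).

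Abcc4, a pump for cyclic nucleotides, bile acids and conjugates that is scarce in healthy liver, was at 0.83 ± 0.21 TPM (SD, n = 3) in nonDEN L-CD. In normalized counts, the nonDEN L-CD libraries were at 99.4, 123 and 81.3, the nonDEN L-WD libraries at 127, 195, 128 and 56.5, and the DEN L-CD libraries at 102, 194, 682 and 153, where replicate 3 stood apart. Peritumoral libraries ranged from 284 to 539 (median 356). The 6 tumors held 628, 504, 361, 330.4, 8511 and 412, with replicate 5 far above the others. All peritumoral libraries and all tumors lay above every library of untreated mice. The difference of tumors from peritumoral liver was 2.23 ± 0.62 (SE) on the log2 scale (adjusted p = 0.00688), and without replicate 5 it was 0.23 (adjusted p = 0.621). Against DEN L-CD the difference was 2.67 ± 0.83 (SE) (adjusted p = 0.0108), without replicate 5 it was 0.66 (adjusted p = 0.173), and without DEN L-CD replicate 3 it was 3.59 (adjusted p = 0.00444). Against nonDEN L-WD (3.82 ± 0.89 (SE); adjusted p = 0.00112) and nonDEN L-CD (4.15 ± 1.04 (SE); adjusted p = 0.0018) the calls held with any 1 library left out, while without replicate 5 the differences were 1.81 ± 0.42 (SE) and 2.14 ± 0.48 (SE). DESeq2 gave no p for Abcc4. Peritumoral liver held 3.01-fold more Abcc4 than nonDEN L-WD without overlap, with an adjusted p of 0.181 in the fit over 25 libraries, whose spread for this gene includes replicate 5, and of 0.0116 in a fit of the 2 groups alone.

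Abcb1a, one of a pair of mouse P-glycoprotein genes, was lowest in untreated control diet liver, higher in peritumoral liver and highest in tumors. The nonDEN L-CD libraries held 67.8, 69.0 and 93.9 normalized counts and the nonDEN L-WD libraries 140, 222, 214 and 74.6. The DEN L-CD libraries held 117, 196, 181 and 138. Peritumoral libraries ranged from 251 to 528 (median 407) and tumors from 603 to 1099 (median 790). All tumors lay above all other libraries, and all peritumoral libraries above the 3 whole-liver groups, among which nonDEN L-WD overlapped with both others. Tumors were 2.09-fold higher than peritumoral liver (log2 fold change 1.07 ± 0.20 (SE); adjusted p = 0.000245), and without peritumoral replicate 7 or tumor replicate 3 or 5 the change was just under 2-fold (0.97 to 0.99, adjusted p at most 0.000937). Peritumoral liver was 2.41-fold above nonDEN L-WD (1.27 ± 0.25 (SE); adjusted p = 0.00345). From nonDEN L-CD to tumor the difference was 10.7-fold (3.42 ± 0.33 (SE); adjusted p = 2.75e-08).

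Abcb1a was the one gene of the 9 called for DEN alone. DEN L-CD was 2.05-fold above nonDEN L-CD (1.03 ± 0.33 (SE); adjusted p = 0.0267), a call lost without nonDEN L-CD replicate 1 or 2 or DEN L-CD replicate 2 or 3 (adjusted p from 0.0602 to 0.11). The western diet alone raised it 2.12-fold (1.08 ± 0.32 (SE); adjusted p = 0.0188), a call lost without nonDEN L-CD replicate 1 or 2 or nonDEN L-WD replicate 2 or 3 (adjusted p from 0.0627 to 0.0838). Endothelial cells also express Abcb1a. The 6 endothelial markers summed to 82.7 to 129 TPM in the 3 whole-liver groups, 134 to 170 TPM in peritumoral liver and 129 to 159 TPM in tumors. In normalized counts their median log2 fold change was 0.34 in peritumoral liver against nonDEN L-WD. In tumors against peritumoral liver it was -0.03. Their part in the differences of Abcb1a was not tested. Of the words of 50 bases of Abcb1a, 17.6% occur in other genes, mainly its neighbour Abcb1b, which was not called in tumors against peritumoral liver (log2 fold change -0.17 ± 0.26 (SE); adjusted p = 0.644).

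**Figure D3:**
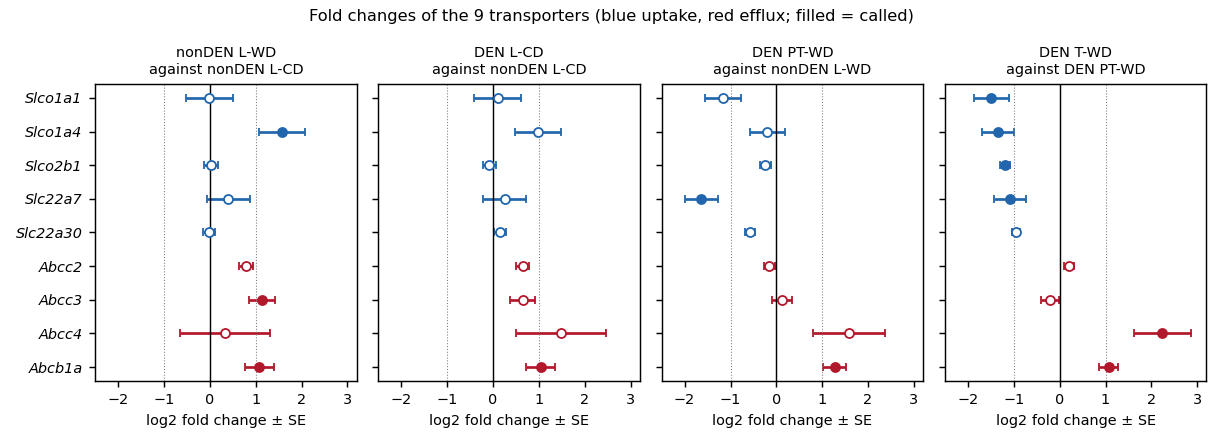
Log2 fold changes with their SE for the 9 genes in 4 comparisons, uptake carriers in blue and efflux pumps in red, with filled circles for called genes and dotted lines at a 2-fold change. In tumors against peritumoral liver all 5 uptake carriers lie at -0.95 or below, while Abcb1a and Abcc4 lie above 1 and the latter rests on a single tumor.

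Setting the comparisons side by side, the western diet in untreated liver moved Slco1a4, Abcc3 and Abcb1a (3 of 9 genes called, all higher, against 5.28% of tested genes). For DEN in control diet liver Abcb1a was called (1 of 9, against 4.7%), and Abcc2 passed the adjusted p at less than 2-fold. No gene was called between DEN L-CD and nonDEN L-WD (0 of 9 by edgeR, against 0.25%; 0 of 9 had an unadjusted p under 0.05, and DESeq2 and limma called 0). Peritumoral liver differed from nonDEN L-WD in Slc22a7 and Abcb1a (2 of 9, against 2.76%) and from DEN L-CD in Slco1a1, Slc22a7 and Abcb1a (3 of 9, against 1.9%). Against nonDEN L-CD, in which both diet and DEN differ, 5 of 9 were called in peritumoral liver (13.3% of tested genes) and 7 of 9 in tumors (20.3%). Tumors differed in 7 of 9 genes from nonDEN L-WD (15.7%) and in 6 of 9 from DEN L-CD (14.3%). These comparisons share their control samples, and the 9 genes were chosen with earlier results of these data known.

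The effect of the western diet differed between injected and untreated mice for a pair of genes. Abcc2 was higher on the western diet in untreated liver and level between peritumoral liver and DEN L-CD (interaction -0.79 ± 0.19 (SE) on the log2 scale; adjusted p = 0.0121). Slc22a30 was level with diet in untreated liver and lower in peritumoral liver than in DEN L-CD (interaction -0.73 ± 0.17 (SE); adjusted p = 0.0102). The first missed the threshold without nonDEN L-CD replicate 2 (adjusted p = 0.0557) and the second without nonDEN L-CD replicate 3 (adjusted p = 0.0504). Both stayed under 2-fold, so edgeR called 0 of 9 genes (2.75% of tested genes), 3 of the 9 had an unadjusted p under 0.05, and DESeq2 and limma each called 1. The largest interaction was that of Slc22a7, at -1.89 ± 0.60 (SE) with an adjusted p of 0.0515, which passed without any 1 of nonDEN L-CD replicate 1, nonDEN L-WD replicate 2, DEN L-CD replicate 2 or peritumoral replicates 6, 7 and 8 (0.0237 to 0.0488). DEN PT-WD was cut from around tumors and DEN L-CD was not separated from any small tumors, so the diet and the kind of tissue sampled cannot be told apart in injected mice.

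**Figure D4:**
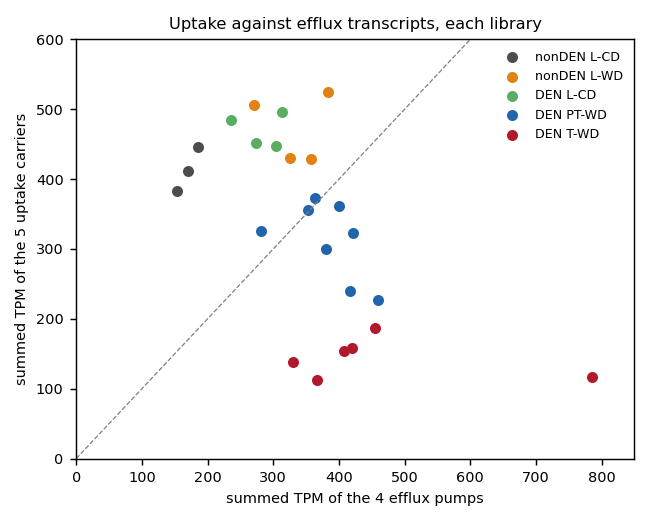
Summed TPM of the 5 uptake carriers against summed TPM of the 4 efflux pumps, a point per library, with the dashed line marking equal sums. The 11 libraries of the whole-liver groups lie above the line, peritumoral libraries lie on both sides of it, and all 6 tumors lie below.

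TPM is corrected for gene length, and levels of different genes can be added. The 5 uptake carriers summed to 414 ± 31.3 TPM (SD, n = 3) in untreated liver on the control diet, 473 ± 50.1 on the western diet (SD, n = 4), 470 ± 24.2 in injected liver on the control diet (SD, n = 4), 313 ± 54.8 in peritumoral liver (SD, n = 8) and 144 ± 28.1 in tumors (SD, n = 6). The 4 efflux pumps summed to 169 ± 16.1, 334 ± 48.8, 282 ± 35.2, 385 ± 54.2 and 461 ± 165 TPM (SD) in the same order. Of the tumors, replicate 5 was at 785 TPM and the other 5 were at 330 to 455 TPM, inside the peritumoral range of 281 to 459 TPM. The ratio of uptake to efflux transcripts within a library, which does not depend on how libraries are scaled, was 2.45 ± 0.05, 1.44 ± 0.30, 1.69 ± 0.26, 0.84 ± 0.23 and 0.34 ± 0.10 (SD), again in that order. Ratios ran from 0.149 to 0.419 in tumors and from 0.495 to 1.16 in peritumoral liver, without overlap. Slco1a1 supplied 58.9% of the uptake sum in nonDEN L-CD and 34.5% in tumors. Abcc2 supplied between 67.4% and 76.2% of the efflux sum, as the mean over libraries, in every group. The ratio of Slco1a1 to Slco1a4 fell in the means from 36.1 in nonDEN L-CD to 20.8 in DEN L-CD, 12.4 in nonDEN L-WD, 7.91 in peritumoral liver and 6.72 in tumors, with a spread of 1.00 to 17.3 among peritumoral libraries.

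The antioxidant response element, the site that NRF2 binds, was searched for as TGACNNNGC on both strands in the 250 bases before and 50 bases after the RefSeq transcription starts (GRCm38.p6). It is held by 12.4% of 32851 such promoters. The promoter table used here covered 7 of the 9 genes, so Slc22a7 and Abcc3 were not analysed in this way, and the letters occurred at starts of Abcc2, Abcc4 and Abcb1a and of no uptake carrier. The matches are shown with 10 bases on either side, read along the element, with the match in capitals.
Abcc2, chr19:43782200-43782228, plus strand: ctcactgggaTGACATAGCattcatctag
Abcc4, first start, chr14:118706226-118706254, plus strand: cggcccgcccTGACCCCGCctctcggggc
Abcc4, second start, chr14:118676936-118676964, minus strand: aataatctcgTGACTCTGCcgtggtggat
Abcb1a, chr5:8567107-8567135, minus strand: ttgttctgtcTGACTCCGCggacaaagag
The Abcc2 match begins 98 bases before the RefSeq start at 43782308 and lies within the GENCODE M21 model of the gene, which begins at 43782192. The matches of Abcc4 begin 25 and 23 bases before its starts, and that of Abcb1a lies after a RefSeq start at 8567091, outside the GENCODE M21 model, which begins at 8660077. A STAT5 site (TTCNNNGAA, in 8.30% of promoters) occurred at Slco2b1 and Abcc4, and an HNF1 element (GTTAAT, in 7.10%) at none of the 7 genes. These are matches of letters only.

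**Figure D5:**
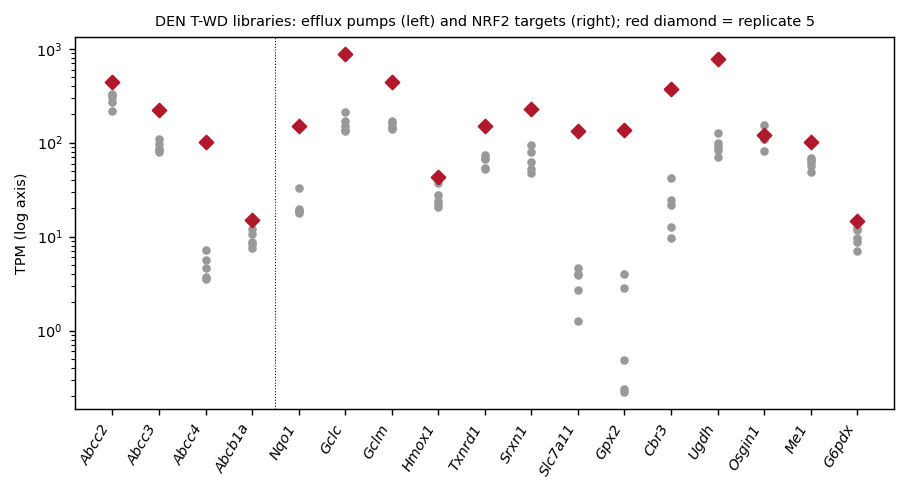
TPM on a log axis of the 4 efflux pumps and of 13 NRF2 target genes in the 6 DEN T-WD libraries, with replicate 5 as a red diamond. Replicate 5 is the highest tumor for each gene except Osgin1, and Abcc4 is at 102 TPM there against 3.50 to 7.28 TPM in the others.

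The tumor with high Abcc4 was also the one with the most transcripts of NRF2 targets. There, Nqo1 (a quinone reductase) was at 151 TPM against 17.8 to 33.0 TPM in the other 5 tumors, Gclc (glutathione synthesis) at 884 against 133 to 210 TPM, and Slc7a11 (the cystine carrier) at 134 against 1.25 to 4.68 TPM. Among 13 targets, 9 were more than 2-fold above every other tumor. Over all tumors 6 of the 13 were called higher than in peritumoral liver, among them Gpx2 (log2 fold change 4.80 ± 1.08 (SE); adjusted p = 0.00128), Slc7a11 (4.25 ± 0.90 (SE); adjusted p = 0.000749), Cbr3 (3.25 ± 0.64 (SE); adjusted p = 0.000396) and Osgin1 (1.46 ± 0.27 (SE); adjusted p = 0.000253), with a list median of 0.92. Without replicate 5 the count was 3 higher and 1 lower and the median 0.50, with Osgin1 at 1.47, Cbr3 at 1.49 and Slc7a11 at 1.36 still called and Gpx2 at 0.94 (adjusted p = 0.291). Nfe2l2 itself did not differ (0.14 ± 0.10 (SE); adjusted p = 0.323).

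Of 31 other uptake carriers listed, 20 were abundant enough to test, and in tumors against peritumoral liver 5 were called lower and 2 higher, with a median of -0.17. Slco1b2, the main carrier of bilirubin conjugates and statins, was at 311 ± 23.0 TPM (SD, n = 6) in tumors and 786 ± 122 TPM (SD, n = 8) in peritumoral liver, with a log2 fold change of -1.47 ± 0.12 (SE). Slc10a1, the sodium-dependent bile acid carrier, was at 137 ± 25.8 against 357 ± 82.8 TPM (-1.51 ± 0.15 (SE)). Slc22a28 (-1.57 ± 0.27 (SE)) and Slc22a3 (-1.33 ± 0.23 (SE)) were also called lower. Without tumor replicate 5, 18 could be tested, of which 5 were called lower and 0 higher, with a median of -0.54. The count called higher was also 0 without any 1 peritumoral library, and 1 without tumor replicate 1. Against nonDEN L-CD, 4 were called lower in tumors and 4 higher (20.3% of all tested genes called in either direction). With 1 library left out, 3 to 4 were lower and 1 to 5 higher. In western against control diet liver of untreated mice, Slc22a3 was called higher (1.09 ± 0.31 (SE)) and Slc22a5, the carnitine carrier, lower (-1.05 ± 0.24 (SE)). The call of Slc22a3 was lost without nonDEN L-CD replicate 2 or nonDEN L-WD replicate 3 (0.87 to 0.98) and that of Slc22a5 without nonDEN L-CD replicate 1 (-0.87). Of 2 called higher and 1 lower there, 1 and 1 were left without the library that held kidney transcripts.

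Among 12 other ABC pumps, those called higher in tumors than in peritumoral liver were Abcc12 (2.09 ± 0.67 (SE)) and Abcc5 (1.52 ± 0.25 (SE)), and 0 were called lower, with a list median of -0.40. Without tumor replicate 5, Abcc5 alone was called (1.04). The bile salt export pump Abcb11 was lower in tumors than in peritumoral liver at less than 2-fold (-0.82 ± 0.10 (SE); adjusted p = 3.83e-06), and was called lower in tumors than in each whole-liver group (log2 fold changes from -1.60 to -1.22). The western diet in untreated liver raised the sterol pumps Abcg5 from 24.2 ± 3.50 (SD, n = 3) to 70.8 ± 14.3 TPM (SD, n = 4) and Abcg8 from 18.3 ± 4.11 to 49.8 ± 10.8 TPM, the 2 members of the list called there.

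Of 16 regulators of transporter genes, 3 were called lower in tumors than in peritumoral liver and 0 higher, with a median of -0.32. Of all tested genes, 3.09% were called lower and 4.81% higher in this comparison, against which the counts of each list in tumors and peritumoral liver are to be read. Among them were Nr1i3 (35.5 ± 10.9 against 86.7 ± 18.8 TPM; log2 fold change -1.46 ± 0.22 (SE)) and the growth hormone receptor Ghr (158 ± 7.38 against 322 ± 30.8 TPM; -1.09 ± 0.07 (SE)). Nr1i3 was the regulator called for the western diet in untreated liver, at 94.0 ± 9.39 against 39.8 ± 19.6 TPM (1.04 ± 0.31 (SE)), a call lost without nonDEN L-CD replicate 2 or 3 or nonDEN L-WD replicate 3 (0.77 to 0.97, adjusted p from 0.0446 to 0.127). Of 8 targets of the receptor that Nr1i3 encodes, 2 were called lower in tumors than in peritumoral liver and 0 higher, with a list median of 0.21 and with Cyp2c29 at -1.99 ± 0.24 (SE). Without tumor replicate 5, 3 were lower and 1 higher, and the list median was -0.52. Against nonDEN L-WD, 2 were lower and 3 higher, among the latter Cyp2b9 (7.09 ± 0.99 (SE)) and Cyp2b13 (7.84 ± 1.34 (SE)). Of all tested genes, 15.7% were called there in either direction. With 1 library left out, 1 to 2 of the 8 targets were lower and 2 to 4 higher. Without nonDEN L-WD replicate 1 the counts were 1 lower and 3 higher.

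Slco1a1 is expressed mainly in males, and 10 other male-biased liver genes were set beside it. In tumors, 8 of the 10 were called lower than in nonDEN L-WD (15.7% of all tested genes called in either direction) and 2 lower than in peritumoral liver, Elovl3 (-1.86 ± 0.22 (SE)) and Cyp7b1 (-1.52 ± 0.35 (SE)), with list medians of -1.62 and -0.86. Without tumor replicate 5 the counts were 8 and 5. Of 11 female-biased genes tested, 1 was called higher in tumors than in peritumoral liver and 0 lower, with a list median of -0.65. This was Cyp2a4, at 2272 ± 447 against 420 ± 302 TPM (2.29 ± 0.68 (SE); adjusted p = 0.0112). Without tumor replicate 2, 4 or 5 or peritumoral replicate 8 the count called higher was 2, and 1 was called lower without peritumoral replicate 5, 6 or 7 or tumor replicate 1 or 6. In peritumoral liver, 8 were called higher than in nonDEN L-CD (13.3% of all tested genes called in either direction), 4 higher than in nonDEN L-WD (2.76%) and 2 higher than in DEN L-CD (1.9%). The count against nonDEN L-CD was 4, 3 and 2 without nonDEN L-CD replicates 1, 2 and 3 in turn. That against nonDEN L-WD was 2 without nonDEN L-WD replicate 1, 3 or 4, and that against DEN L-CD was 0 without any 1 of the DEN L-CD libraries and 1 without peritumoral replicate 2, 3 or 8. In tumors, 6 were called higher than in nonDEN L-WD (15.7%), with a list median of 2.08, and 4 higher than in nonDEN L-CD (20.3%).

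Cell type markers differed between the tumor groups. Their sums are in TPM, a scale that shifts between groups as given above. The hepatocyte markers summed to 33655 TPM in tumor replicate 5 and to 116694 to 138952 TPM in the other 5 tumors, which lay above every peritumoral library (42371 to 70980 TPM). The sum is mostly Alb, and the 6 markers were divided: against peritumoral liver, 3 passed the adjusted p as higher in tumors (Alb, Ahsg and Apoa1) and 2 as lower, Cps1 (-0.78 ± 0.19 (SE); adjusted p = 0.00249) and Serpinc1 (-0.28 ± 0.06 (SE); adjusted p = 0.000793). Cps1, the first enzyme of the urea cycle, was called lower in tumors than in each whole-liver group (log2 fold changes from -1.78 to -1.13). The 6 bile duct markers summed to 385 to 834 TPM in tumors, 73.8 to 325 TPM in peritumoral liver and 32.4 to 68.7 TPM elsewhere, most of it Spp1 (372 to 817 TPM in tumors), while the keratin Krt19 was at 0.80 to 4.60 TPM in tumors and 1.87 to 6.21 TPM in peritumoral liver. Kupffer cell markers summed to 195 to 466 TPM in peritumoral liver and 170 to 323 TPM in tumors, against 121 to 273 TPM elsewhere. Stellate cell and fibroblast markers summed to 229 to 424 TPM in peritumoral liver, 189 to 250 TPM in tumors and 147 to 221 TPM elsewhere, and leukocyte markers to at most 42.0 TPM. Exocrine pancreas markers summed to 9.41 to 4391 TPM, with a median of 34.0 TPM in tumors and of 207 to 436 TPM in the other groups. None of the 6 was called in tumors against peritumoral liver (median log2 fold change -2.08), and 4 were called lower without tumor replicate 6. None of these lists held a marker at 0 in every library of a group. Their part in the changes of the 9 genes was not tested.

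For the 3 genes with the widest range of group means, the genes with the most similar course over the 25 libraries were found by the root mean square difference of centred log2 CPM (normalized counts scaled to a common depth). Slco1a1 was closest to Slc22a28 (0.36), Mup19 (0.42) and Mup22 (0.43), against a median of 1.40 over all genes. The Mup genes encode major urinary proteins, a male-biased family with near-identical members. Abcb1a was closest to Pcdh17 (0.43), S100a11 (0.43) and Sh3pxd2b (0.45), against a median of 1.23. Abcc4 was closest to Gm10639 (0.59), the glutathione transferase Gsta1 (0.59) and Ahnak2 (0.62), against 1.43. The course of Abcc4 includes tumor replicate 5, at 8511 normalized counts against 628 in the next tumor. Its likeness was not computed without that library. Among the 9 genes themselves, Slco2b1 and Slc22a30 ran closest together (0.34), then Abcc2 and Abcc3 (0.38).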

How the data were processed

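Poly(A) RNA of 25 mouse tissue samples was sequenced as single-end reads. Per the labels and the study's methods, the authors checked reads with FastQC and aligned and quantified them with STAR and RSEM on GRCm38. The annotation release, the use of strand and the version of either quantification tool are not given in the sources used here. The deposited files hold expected counts (RSEM's estimated counts), TPM and FPKM per gene, and FPKM were not used.

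Expected counts were rounded, filtered with filterByExpr (minimum count 10) and scaled by TMM. A single edgeR (4.0.16; R 4.3.3) quasi-likelihood model was fitted to the 5 groups, with Benjamini-Hochberg adjustment over 15625 genes in each of 11 comparisons. Called genes had an adjusted p of at most 0.05 and a change of at least 2-fold. Libraries held 21530083 to 38074411 counts. Each pair of replicates differed by more than sampling noise. The script was tested on simulated data.

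Symbols were taken from reference tables for 99.1% of 48795 identifiers. Promoters came from RefSeq (GRCm38.p6) and gene models from GENCODE M21. The 9 genes and all gene lists were chosen with earlier results of these data known. Genes named from a list were, in each comparison, up to 4 called genes of largest change with at least 100 normalized counts, and other genes were named after their values were seen. A single regulator is not reported here by name. Alternatives were DESeq2 (1.42.0), its size factors, no filter, only the groups compared, a replicate block, limma (3.58.1) on log2(TPM + 0.1) and leaving out each library.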

Additional observations from a re-analysis of the deposited data

Results flagged for a closer look

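Among 36 sets of 4 to 8 libraries of a gene and a group, 5 held a library far from the others by Dixon's criterion, which chance meets in about 1 of 20 sets. Slco2b1 was at 4495 normalized counts in DEN PT-WD replicate 6, where the nearest other library was at 3311. Slc22a7 was at 167 in DEN T-WD replicate 6, against 79.3 in the next tumor. Abcc3 was at 14977 in DEN T-WD replicate 5, against 7395 in the next tumor. Abcc4 was at 682 in DEN L-CD replicate 3, against 194 in the next library, and at 8511 in DEN T-WD replicate 5, against 628 in the next tumor. The last of these and the high Abcc3 were in the same tumor.

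The difference of the diet effect between injected and untreated mice passed the adjusted p of edgeR's quasi-likelihood test for Abcc2 (-0.79 on the log2 scale; adjusted p = 0.0121) and for Slc22a30 (-0.73; adjusted p = 0.0102).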

How the results depend on the processing

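Of 99 differences of the 9 genes, the 77 of at least 0.2 on the log2 scale were followed through each alternative, and the 22 smaller ones were not. DESeq2 size factors left all 77 on their side of the threshold, DESeq2 itself 65 (2 gained, 10 without a p, all for Abcc4), no filter 76, only the groups compared 73, the replicate block 67 and limma on log2(TPM + 0.1) 64. Reversals concerned differences that were not called. Slco2b1 in peritumoral liver against nonDEN L-CD went from -0.21 to 0.25 under limma on TPM. There the median of all genes in that comparison was 0.35, against 0.04 in the edgeR fit. With 1 library left out, Slc22a7 in DEN L-CD against nonDEN L-CD ranged from -0.0815 (without nonDEN L-CD replicate 2) to 0.62, and the interaction for Abcb1a from -0.00148 to 0.42.

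The number of the 9 genes called in tumors against peritumoral liver was 3 with the replicate block, against 6 without it, as Abcc4 (0.74, adjusted p = 0.276), Abcb1a (0.95, adjusted p = 0.00161) and Slc22a7 (-0.67, adjusted p = 0.0145) were lost. Deviations of same-numbered tumor and peritumoral samples correlated at -0.238 to 0.317 over 6 pairs, with 3 over 0.1. Same-numbered untreated livers of different diets, which cannot share a mouse, gave -0.00122 to 0.351 over 3 pairs. The correlations therefore cannot tell whether same-numbered tumor and peritumoral samples came from the same mouse. For DEN in control diet liver limma called 0 instead of 1, and for the interaction DESeq2, the block and limma each called 1 instead of 0. The cause was not tested. Leaving out 1 library gave 4 to 6 called genes for tumors against peritumoral liver, 2 to 3 for peritumoral liver against nonDEN L-WD, 1 to 3 against DEN L-CD and 2 to 5 against nonDEN L-CD, 1 to 3 for the western diet, 0 to 1 for DEN, 7 to 7 for tumors against nonDEN L-WD, 5 to 7 against DEN L-CD and 6 to 7 against nonDEN L-CD, 0 to 0 between the livers with DEN only and with western diet only and 0 to 1 for the interaction. Counts of lists without DEN T-WD replicate 5 or nonDEN L-WD replicate 1 were added after seeing the data.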

Other observations

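Peritumoral libraries differed among themselves in the pair of Slco1a genes. Replicates 1 and 5 had the lowest Slco1a1, at 2518 and 2485 normalized counts against 7996 to 13152 in the other 6. Slco1a4 was at 1748 and 1752 in these libraries and at 1715 in replicate 6, against 484 to 974 in the other 5. Hsd3b5, a male-biased steroid dehydrogenase chosen after its values were seen, was at 3.05 and 2.29 TPM in replicates 1 and 5, against 25.7 to 76.6 TPM in the other 6. The other male-biased and female-biased genes are not given for these libraries, so Hsd3b5 does not stand for either list.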
